A study of Bos taurus with 6 samples.

Results

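The miR-29 family of bovine miRNAs was examined in primary myoblasts treated with resveratrol (RSV), a plant polyphenol. The family was taken as every entry of the miRNA list named bta-miR-29 plus a letter, with or without an arm suffix, which gave 6 of 765 miRNAs: bta-miR-29a, bta-miR-29b, bta-miR-29c, bta-miR-29d-5p, bta-miR-29d-3p and bta-miR-29e. Myoblasts are the precursor cells that fuse into muscle fibers, and these came from the longissimus dorsi muscle of fetal beef cattle. In the RSV group, 3 cultures received 20 μM RSV dissolved in DMSO for 4 days in differentiation medium, and in the control group 3 cultures received DMSO alone. RNA of each culture was sequenced for mRNA and for miRNA. The sources used here call the cultures independent experiments and do not say whether the groups shared a fetus, so P-values measure the spread between these cultures alone.

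A miRNA is a short RNA that guides a silencing complex to matching sites in mRNAs, chiefly through its seed near the 5′ end, and lowers the level or translation of these mRNAs. The 3′ arm members of the miR-29 family are known to share their seed, and the family is known for repressing collagens and other genes of the extracellular matrix. It is also known for repressing DNA methyltransferases, and it has been linked to both differentiation and wasting of skeletal muscle. In the RefSeq gene table of cattle (assembly ARS-UCD2.0), the family has 6 hairpin genes that lie as neighbouring pairs. MIR29A lies beside MIR29B-1, MIR29B-2 beside MIR29C, and MIR29E beside MIR29D. Mature miR-29b can come from both of its hairpin genes, so its reads cannot be assigned to one pair.

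The deposited table gives 1 mean normalized read count per group for each miRNA, that is, the reads of a library divided by its size factor, a scale for sequencing depth, and averaged over the libraries of the group. The reads of single libraries were recovered from these means for 583 of the 765 miRNAs, including 5 of the 6 family members. The libraries are named here by their size factors, 1.54, 1.29 and 0.935 for RSV, and 0.922, 0.823 and 0.729 for DMSO, so that RSV library 1.54, for example, is the RSV library with that size factor, since nothing links them to the replicate numbers of the labels. The recovered reads summed to 28392, 25019 and 18069 for RSV and 17046, 15416 and 13419 for DMSO, in the order above. These sums leave out the abundant miRNAs whose reads could not be recovered. Every RSV library was deeper than every control library, so reads before normalization cannot be compared between the groups. The group means of all miRNAs summed to 6637955 (RSV) and 7340618 (DMSO). The muscle miRNAs bta-miR-1, bta-miR-133a, bta-miR-133b, bta-miR-206 and bta-miR-499 were all listed, with summed group means of 170161 in RSV and 183396 in the control, and bta-miR-206 ranked 10 among all miRNAs. That sum was set by bta-miR-206 and bta-miR-1, both lower in RSV, while bta-miR-133a and bta-miR-133b had slightly higher means in RSV. bta-miR-499, at means of 114.5 and 46.1, was the only one of the 5 that was in the test, and it was called higher in RSV (limma voom, adjusted P-value 0.025). Of 12 miRNAs of other cell types, 11 were listed, with summed means of 381830 and 392485, nearly all of it from bta-miR-143 and bta-miR-145, which smooth muscle cells and fibroblasts carry. The white cell miRNAs had no common direction. bta-miR-223 was at 0 in the RSV libraries and had a mean of 4.78 in the control, whereas bta-miR-142-3p had means of 12.2 and 3.0003 and bta-miR-142-5p of 24.4 and 13.4, both with their highest value in RSV library 0.935 (35.3 and 66.3). The liver miRNA bta-miR-122 was high in 1 library of each group, with 200.5, 26.3 and 38.5 normalized reads for RSV and 26.0, 17.001 and 87.8 for DMSO. The part of these miRNAs in the results below was not tested.

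No difference between the RSV and control groups was detected for any member of the miR-29 family that could be tested. Each of the 6 had a higher mean in the RSV group, as did 51.2% of all 765 miRNAs, but bta-miR-29d-3p and bta-miR-29e had 1 and 3 reads in all, too few to give a direction. The libraries of both groups overlapped for bta-miR-29b, bta-miR-29c and bta-miR-29d-5p. For bta-miR-29d-3p and bta-miR-29e, both groups had libraries at 0, so an overlap was fixed in advance. The share of all miRNAs with such an overlap was not computed, so nothing is read from it. bta-miR-29a made up nearly the whole family, with 98.2% (RSV) and 98.4% (DMSO) of its normalized reads. The family as a whole held 0.283% of the summed miRNA reads in RSV and 0.251% in the control. The family sums differed by a log2 ratio of only 0.03, while the total of all miRNAs was lower in RSV (6637955 against 7340618). The shares thus differ mostly through that total.

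**Figure D1:**
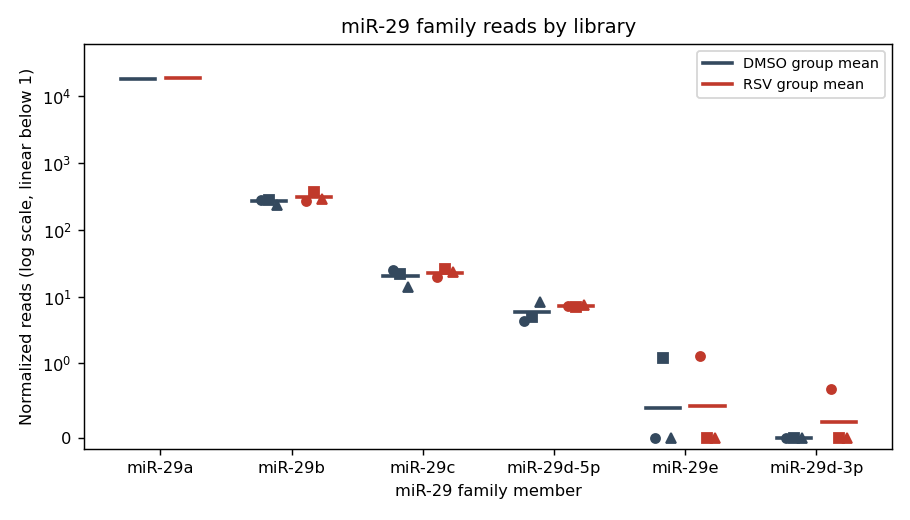
Normalized reads (vertical axis, log scale above 1) of the 6 miR-29 members (horizontal axis) in the RSV and control (DMSO) groups. Points are single libraries, with circle, square and triangle in falling order of size factor within a group, and bars are group means. bta-miR-29a has group means alone, and for the other members the points of both groups overlap.

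bta-miR-29a was the most abundant member. The authors' group means were 18475 normalized reads in RSV and 18106 in the control, a log2 ratio of 0.03, and it ranked 33 by mean among the 765 miRNAs. Its reads were too many to be recovered for single libraries, so it has neither an error nor a test. Among the 50 miRNAs nearest to it in mean, 7 had a smaller absolute log2 ratio on the authors' scaling. The median absolute log2 ratio of these 50 was 0.12, and their median log2 ratio with its sign was −0.09. The ratio depends on the scaling: when both groups were set to the same total of miRNA reads, all RSV values rose by 0.15 on the log2 scale and that of bta-miR-29a became 0.17.

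bta-miR-29b was the second member in abundance, with 310.7 ± 54.4 normalized reads in RSV and 264.7 ± 26.1 in the control (SD, n = 3 libraries each). In the order of size factors given above, RSV cultures gave 269.9, 372.5 and 289.7 normalized reads, whereas DMSO cultures gave 277.7, 281.7 and 234.6. These came from 416, 482 and 271 recovered reads in RSV and 256, 232 and 171 in the control. These reads were the only combination found, but at this abundance 0.36 combinations were expected by chance in RSV and 0.072 in the control, so they are less certain than those of the lower members. RSV library 1.29 was the highest of all, whereas RSV library 1.54 lay below 2 of the 3 control libraries. The log2 fold change was 0.22 (standard error 0.14, 95% confidence interval −0.10 to 0.54), with an adjusted P-value of 0.37 from limma voom, a linear model on log2 reads weighted by their precision, with Benjamini-Hochberg adjustment over 209 miRNAs. On a linear scale the interval ran from 0.935 to 1.45 times the control level.

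The fitted change of bta-miR-29b moved with single libraries. Without RSV library 1.29 the log2 fold change fell to 0.08 (limma voom, adjusted P-value 0.77), and without RSV library 1.54 it rose to 0.32 (limma voom, adjusted P-value 0.23). Without control library 0.729 it was 0.14 (limma voom, adjusted P-value 0.64). RSV library 1.29 also had 462.9 normalized reads of bta-miR-451, a miRNA of red blood cells, against 53.4 to 97.4 in the other 5 libraries. The other red cell miRNA looked for, bta-miR-144, was not listed. The muscle miRNA bta-miR-499 was also highest in RSV library 1.29, with 162.3 normalized reads against 41.2 to 91.5 in the other libraries. The white cell miRNAs bta-miR-142-3p and bta-miR-223 were at 0 there, and bta-miR-142-5p was at 2.3. The part of these miRNAs in the bta-miR-29b value was not tested. In bulk RNA a change in the share of a cell type and a change of the miRNA per cell cannot be told apart.

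bta-miR-29c was less abundant again, with 22.8 ± 3.08 normalized reads in RSV and 20.2 ± 5.80 in the control (SD, n = 3 libraries each). The RSV libraries had 19.5, 25.5 and 23.5 normalized reads and the control libraries 24.9, 21.9 and 13.7. The ranges overlapped, and control library 0.729 was the lowest of the 6, with 10 reads. The log2 fold change was 0.13 (standard error 0.26, 95% confidence interval −0.45 to 0.71), with an adjusted P-value of 0.80 from limma voom. Without that control library the direction turned, with a log2 fold change of −0.069 (limma voom, adjusted P-value 0.89). Misassigned reads of bta-miR-29a, with its far higher level, may be among those of bta-miR-29c, which was not tested.

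bta-miR-29b and bta-miR-29c were the only members that met both conditions of the test, recovered reads and a mean of 10 or more. Neither was called at an adjusted P-value of 0.05, against 9.57% of the 209 miRNAs tested (5.26% higher and 4.31% lower in RSV), and neither had an unadjusted P-value under 0.05 (limma voom, 0.15 for bta-miR-29b and 0.62 for bta-miR-29c). Of the 209 miRNAs, 85 had a smaller P-value than bta-miR-29b and 160 a smaller one than bta-miR-29c. The median log2 fold change over these 209 miRNAs was 0.03. The intervals leave room for a rise of bta-miR-29b to 1.45 times and of bta-miR-29c to 1.64 times the control level, so these data do not show that the levels were equal.

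**Figure D2:**
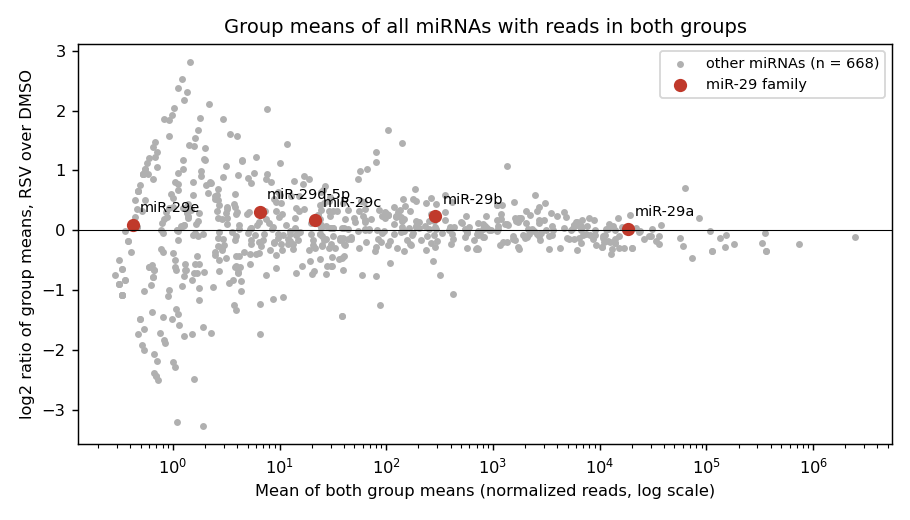
The log2 ratio of the group means (RSV over DMSO, vertical axis) against the mean of both group means (horizontal axis, log scale) for every miRNA with reads in both groups. Red points are miR-29 members, which lie between 0.03 and 0.31 on the vertical axis, and grey points are all other miRNAs. The point of bta-miR-29e rests on 3 reads in all, too few to give a direction, and bta-miR-29d-3p is not shown.

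The remaining members were near the limit of detection. bta-miR-29d-5p gave 7.14, 6.96 and 7.48 normalized reads with RSV, and 4.34, 4.86 and 8.23 with DMSO. These came from 27 reads in the deeper RSV libraries and 14 in the control. Its mean was higher in RSV by 23.8%, with the highest single value in a control library, and it was not in the test because its mean was below 10. When every miRNA with recovered reads was tested, its log2 fold change was 0.32 (standard error 0.45, limma voom, adjusted P-value 0.81). bta-miR-29e had 2 reads in RSV library 1.54 and 1 read in control library 0.823. bta-miR-29d-3p had a single read, in RSV library 1.54. For these last members both groups were at or under 3 reads, so no fold change is given in the text.

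The arms of the miR-29d hairpin differed in reads. A hairpin yields a mature RNA from each arm, and in the miR-29 family the 3′ arm is known as the one that carries the collagen-targeting seed. Over all 6 libraries, 41 reads were assigned to bta-miR-29d-5p and 1 read to bta-miR-29d-3p. Members of the family differ by few bases, so reads of a member may have been assigned to another. This split is uncertain to that extent, and so are the levels of the members far below bta-miR-29a, bta-miR-29c among them. How many reads this concerns was not tested.

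The order of the levels was the same in both groups. bta-miR-29a lay above bta-miR-29b by 59.5 times in RSV and 68.4 times in the control, as a ratio of the authors' group means. bta-miR-29b lay above bta-miR-29c in every library, and the lowest library of bta-miR-29c (13.7) lay above the highest of bta-miR-29d-5p (8.23). bta-miR-29e and bta-miR-29d-3p, at 0 to 1.30 and 0 to 0.649 normalized reads, did not differ beyond their spread. These are ratios of reads, and the efficiency of library preparation differs between miRNAs. They would also shift if reads of the far more abundant bta-miR-29a had been assigned to lower members.

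The 5 members with recovered reads together gave 298.4, 405.0 and 320.7 normalized reads with RSV, and 306.9, 309.7 and 256.5 with DMSO. RSV library 1.54 lay within the control range, so the groups overlapped. The means, 341.4 ± 56.2 and 291.1 ± 29.9 (SD, n = 3), differed by 50.3 normalized reads (two-sided exact permutation test, p = 0.30, where the smallest p that 3 libraries against 3 allow is 0.10). bta-miR-29a is not in this sum. With it, as group means alone, the family had 18816 normalized reads in RSV and 18397 in the control, a log2 ratio of 0.03.

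**Figure D3:**
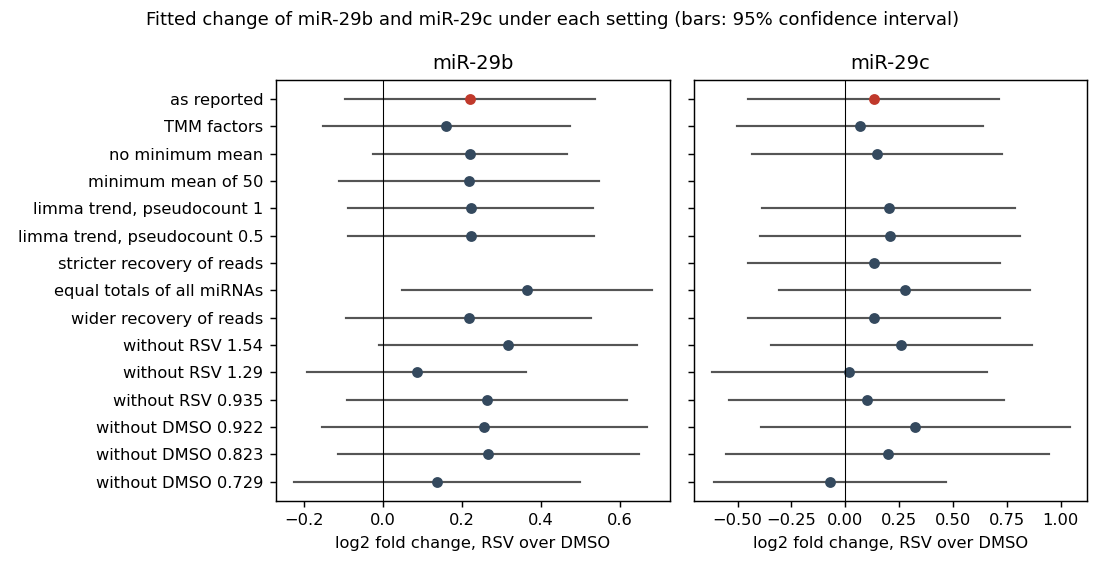
The fitted log2 fold change (RSV over DMSO, horizontal axis) of bta-miR-29b (left) and bta-miR-29c (right) under each setting tried (rows), with the 95% confidence interval as a bar. Red points are the values as reported, rows with a number leave out the library of that size factor, and an empty row means that the miRNA was not in that fit. The point of bta-miR-29b ranges from 0.08 to 0.36 and that of bta-miR-29c from −0.069 to 0.32.

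The miRNAs whose pattern over the 6 libraries was most like that of bta-miR-29b were bta-miR-133c, bta-miR-301b and bta-miR-2431-5p. Their Pearson correlations with bta-miR-29b on the log2(normalized reads + 1) scale were 0.86, 0.86 and 0.85, the highest of 207 miRNAs compared. This is a description over 6 points that share their libraries and size factors. bta-miR-133c, for example, gave 237.4, 333.1 and 296.1 normalized reads with RSV, and 264.6, 227.1 and 223.6 with DMSO, also with its highest value in RSV library 1.29. None of these 3 miRNAs was called (limma voom, adjusted P-values 0.28, 0.80 and 0.21).

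Known targets of miR-29 were looked up among the mRNAs of the same cultures. The list of 43 genes was written from general knowledge, with earlier results of these data known. Sites for miR-29 in the bovine mRNAs were not analysed here. Only 14 of the 43 (32.6%) could be paired with an identifier, all of them through the study's own sheet of DE mRNAs. That sheet was held only in part here, as its most significant rows, so every one of the 14 had been called on these samples, and neither their directions nor the separation of their libraries is independent evidence. Of the 14, 12 had a lower mean in RSV and 2 a higher one, with a median log2 ratio of −0.54. Reads could be recovered for 8 of the 14, and 6 of these 8 had a lower mean in RSV, with a median log2 ratio of −0.57. Among the 1658 named mRNAs of the sheet whose reads could be recovered, 54.6% had a lower mean in RSV, with a median log2 ratio of −0.39. This share is comparable with the 6 of 8, not with the 12 of 14. No test of the difference was made. The 29 other genes of the list, COL1A1 and COL1A2 among them, were not analysed here, and the list as a whole was not tested.

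Of the 10 collagens on the list 6 were paired, each with a lower mean in RSV. All 6 had been called on these samples, so nothing is read from this count. COL6A3, a chain of the collagen VI network around muscle fibers, had 0.462 times its control mean. COL3A1, COL5A1 and COL5A2, chains of fibrillar collagens, had 0.690, 0.691 and 0.691 times their control means. SERPINH1, the collagen chaperone of the endoplasmic reticulum, had 0.658 times and SPARC, a collagen-binding matrix protein, 0.734 times its control mean. For COL6A3, COL3A1, COL5A1, COL5A2, SERPINH1 and SPARC the decimal point was lost in the deposited table. Their ratios and directions therefore rest on the power of 10 that puts the ratio nearest 1. That choice gave the settled ratio for 8 of the 8 mRNAs below and for 1537 of the 1658 named mRNAs with recovered reads. mRNAs without recovered reads, such as these 6, are not covered by that check.

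For those 8 mRNAs the reads of single libraries were recovered, and the RSV and control libraries did not overlap for any of them, as for 1658 of the 1658 named mRNAs of the sheet with recovered reads. All of these had been called on the same samples, so nothing is read from the count of 8. ELN, which encodes elastin, ranged from 1318 to 2132 normalized reads with RSV and from 3982 to 4380 with DMSO, a log2 ratio of −1.25. ITGA11, a collagen-binding integrin chain, ranged from 2921 to 4783 with RSV and from 7466 to 8105 with DMSO, a log2 ratio of −0.92. COL15A1, a collagen of the basement membrane zone, ranged from 644.2 to 682.1 with RSV and from 1111 to 1170 with DMSO. These 3 mRNAs had the lowest ratios of the 8.

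LAMA2, the laminin chain of the muscle basement membrane, ranged from 2227 to 2382 normalized reads with RSV and from 3290 to 3725 with DMSO. LOX, the enzyme that crosslinks collagen and elastin, ranged from 9520 to 12640 with RSV and from 16341 to 16931 with DMSO. COL5A3, another chain of collagen V, ranged from 2691 to 3501 with RSV and from 3948 to 4198 with DMSO. All 3 were lower in RSV, by log2 ratios of −0.60, −0.55 and −0.40.

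A pair of list genes had higher means in RSV. LAMC1, the laminin gamma chain of most basement membranes, ranged from 13295 to 13889 normalized reads with RSV and from 9648 to 10168 with DMSO, a log2 ratio of 0.47. PPM1D, a phosphatase induced by p53, ranged from 349.8 to 551.2 with RSV and from 183.9 to 197.2 with DMSO, a log2 ratio of 1.14. The libraries of mRNA and miRNA could not be matched to each other, so no relation between a miR-29 member and an mRNA was computed.

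**Figure D4:**
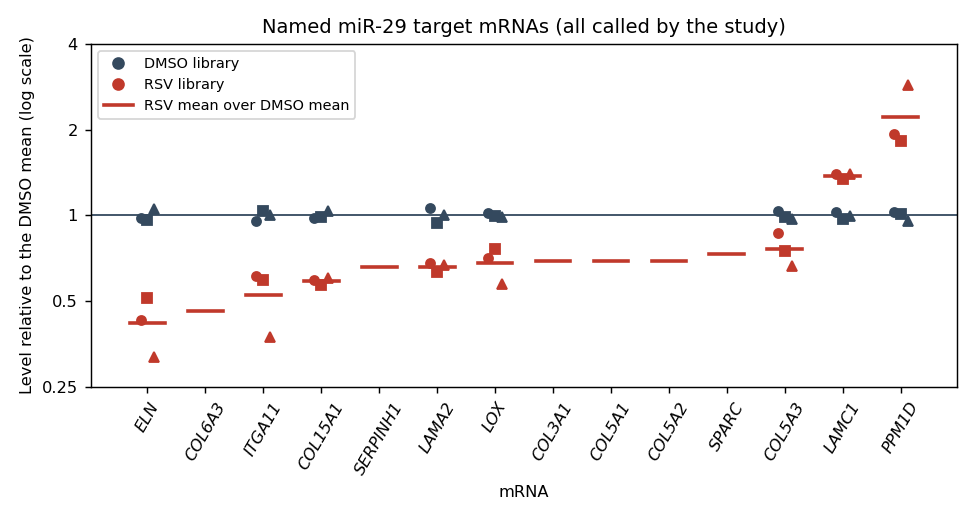
Levels of the 14 paired target mRNAs (horizontal axis) relative to their DMSO mean (vertical axis, log scale). Points are single libraries for the 8 mRNAs with recovered reads, and red bars are the RSV mean over the DMSO mean, which lies below 1 for 12 mRNAs and above 1 for LAMC1 and PPM1D.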

How the data were processed

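Per the paper's methods, the authors sequenced 50-base single-end miRNA reads, mapped them to UMD_3.1.1/bosTau8 with Bowtie (0.12.9 in the submitters' processing notes), named miRNAs by miRBase and compared the groups with DESeq. The deposited table holds group means of read counts divided by size factors. It also holds the authors' fold changes, P-values and adjusted P-values, which were not used here. The mRNA aligner and counting tool are not given in the sources used here. In the mRNA part, most decimal points were lost.

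Each group mean is a sum of 3 whole read counts, each multiplied by a fixed step. The steps were read from the lowest means. A mean was searched only where under 1 combination was expected by chance, and the stricter recovery used below asked for under 0.1. A miRNA was taken as recovered when exactly 1 combination of whole reads gave its mean in both groups. For means up to 100, this held for 470 of 470 miRNAs in RSV and 474 of 474 in the control. No recovery was possible for bta-miR-29a. For mRNAs, each library was also required to lie within 0.5 to 1.75 times the group mean, with under 0.1 combinations expected by chance, which also placed the decimal point.

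For the 209 recovered miRNAs averaging 10 normalized reads or more, the voom method of limma was run (version 3.58.1 under R 4.3.3), taking the size factors as library sizes and no covariate. A miRNA was called at a Benjamini-Hochberg adjusted P-value under 0.05. The fit covers miRNAs with a mean of up to 423 normalized reads. Recovery used Python 3.11.15, numpy 2.4.6 and numba 0.67.0, and the recovery and the fit were each run on simulated data. The simulated recovery was given the exact size factors, whereas here they were estimated from the means, so error in them was not covered. The members and lists were chosen with earlier results of these data known. The text names every family member, the targets that could be paired, and the 3 miRNAs most correlated with bta-miR-29b. Gene names came from the part held here of the supplementary sheet of DE mRNAs, which is ordered by the authors' P-values, since the RefSeq table of ARS-UCD2.0 holds 0 of the 24616 mRNA identifiers.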

Additional observations from a re-analysis of the deposited data

How the results depend on the processing

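No fitted member of the miR-29 family was called under any of the 14 alternatives. These were another normalization (TMM), no minimum mean or one of 50, and limma on log2(normalized reads + 1 or + 0.5). The others were stricter or wider recovery of reads, equal miRNA totals and each of the 6 libraries left out. bta-miR-29a was in none of the fits, and bta-miR-29d-5p, bta-miR-29d-3p and bta-miR-29e only in that without a minimum mean. The equal totals, the wider recovery and the use of the stricter recovery for the count over all miRNAs were chosen after seeing the data. bta-miR-29b was not in the fit under the stricter recovery, and bta-miR-29c not under a minimum mean of 50. The log2 fold change of bta-miR-29b lay between 0.08 and 0.36 (limma, adjusted P-values 0.11 to 0.77), and the highest value came with equal totals, where its unadjusted P-value was 0.029. That of bta-miR-29c lay between −0.069 and 0.32 (limma, adjusted P-values 0.51 to 0.98), with the negative value of −0.069 when the control library with a size factor of 0.729 was left out.

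The number of miRNAs called, 20 (11 higher and 9 lower in RSV), became 8 under the stricter recovery, with 175 miRNAs fitted, and 33 (26 higher and 7 lower) with equal totals. With a library left out it lay between 4 and 23, with 13 without the RSV library of size factor 1.54 and 5, 7 and 4 without the control libraries of size factors 0.922, 0.823 and 0.729. The summed difference of 50.3 normalized reads became 4.28 without bta-miR-29b and lay between 18.5 and 71.8 with a library left out. No paired analysis was possible because the recovered libraries carry no replicate number. Depth limits bta-miR-29c, with 10 to 33 reads per library, and the members below it, and bta-miR-29a has no estimate of its spread.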
